A study of Mus musculus with 2 samples.

Results

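The clustered protocadherin genes were taken as the genes whose GENCODE vM21 name starts with Pcdha, Pcdhb or Pcdhg, followed by a, b, c or a number, within mm10 chr18:36910184-37861873. The rule gave 58 genes, of which 14 are alpha genes, 22 are beta genes and 22 are gamma genes, and the same annotation holds 21755 protein-coding genes. The span held 69 of the 68590 CTCF peaks that were analysed. All 58 genes lie on the plus strand, and 1 of them, Pcdhgb8, is annotated as a polymorphic pseudogene. A pair of annotation records carries the name Pcdha11, and the record that starts at 37005203 is called Pcdha10 here, because RefSeq places the start of Pcdha10 117 bp from it.

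Chromatin bound by CTCF was measured by ChIP-seq in midbrain of B6NCrl mice on postnatal day 0, with an antibody to CTCF and a control alignment, in 1 group of 2 replicates. Both replicates carry 1 biosample and 1 donor record and the sex was not collected, which means that their spread may be only technical. Peak lists give no expression, so the tissue label could not be checked against marker genes. The read depth is not given in the sources used here, and no statement on the absence of CTCF is made where a list has no peak.

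Clustered protocadherins are cadherin-type adhesion proteins of the neuronal surface, and a neuron uses a small choice of them, which gives it an identity that its own branches recognise. Each variable exon of the alpha and gamma genes has its own promoter and is spliced to constant exons shared within the cluster, whereas each beta gene has a single coding exon. CTCF is a zinc finger protein that, with cohesin, holds chromatin in loops, preferentially between binding motifs that point towards each other. Most variable promoters of the clusters carry a conserved sequence element that CTCF binds, and Pcdhac2, Pcdhb1, Pcdhgc4 and Pcdhgc5 are known as exceptions. The alpha variable exons carry a further CTCF site in their coding sequence, and distal enhancers lie beyond the 3' ends of the alpha and gamma clusters.

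CTCF peaks were dense across the protocadherin span, and most of them sat at a gene start. The optimal list, which is the authors' list thresholded by the irreproducible discovery rate (IDR, a comparison of peak ranks between sets of peaks), gave 72.5 peaks per Mb in the span, against 27.2 per Mb of the autosomes and 22.7 per Mb of chromosome 18. Of the 69 peaks, 57 (82.6%) had their summit within 1 kb of a transcript start of a member. The share of all optimal peaks that lie at a gene start was not computed, so this count has no background beside it. The gamma cluster was the densest with 23 peaks (127 per Mb), followed by the alpha cluster with 20 (77.4 per Mb) and the beta cluster with 19 (72.9 per Mb). The 76.3 kb between the alpha and beta clusters held 2 peaks and the 136 kb between the beta and gamma clusters held 3. The 19 kb before Pcdha1 held none and the 20 kb after the gamma cluster held 2. The widest stretch without a peak, 125.5 kb, ran from the Pcdhb22 start into the interval before the gamma cluster. Within the alpha cluster, 69.3 kb without a peak separated Pcdha12 from Pcdhac1 and a further 53.8 kb separated Pcdhac1 from Pcdhac2.

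**Figure D1:**
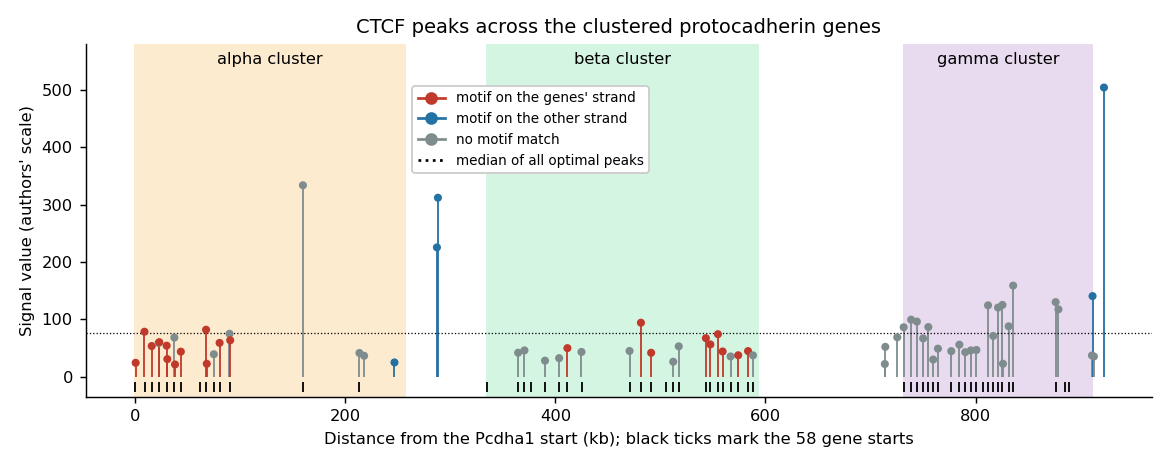
Signal value (vertical axis, authors' scale) of the 69 optimal peaks against distance from the Pcdha1 start in kb, coloured by the strand of the CTCF motif match, with black ticks at the 58 gene starts and a dotted line at the median of all optimal peaks (76.5). At the threshold of 1e-05 drawn here, the 21 start peaks with a motif point with the genes and the 5 motif-bearing peaks away from the starts point the other way; at 1e-04, 2 of 8 such peaks point with the genes.

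A start peak was listed for 51 of the 58 members (87.9%), against 43.4% of all protein-coding genes. By cluster these were 13 of 14 alpha genes, 19 of 22 beta genes and 19 of 22 gamma genes. The members without one were Pcdha8, Pcdhb1, Pcdhb4, Pcdhb12, Pcdhga9, Pcdhgc4 and Pcdhgc5. Neighbouring members share sequence and position, so they are not independent, and no test over them was made. The lists disagreed on which members lacked a peak. The conservative list, also thresholded by IDR, had a start peak at 50 members, against 41.8% of protein-coding genes, and 54 members had one in either list, against 46.3%. Pcdhb4, Pcdhb12 and Pcdhga9 were the 3 members with a start peak in the conservative list alone.

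Signals at the members without an optimal start peak spanned a wide range in the list called on both replicates together with no IDR threshold, which had a start peak at 57 members, against 71.4% of protein-coding genes. In that list Pcdhb4 had a signal of 48.1, Pcdhga9 40.1 and Pcdhb12 26.3, all within the range of the 51 listed start peaks. The other members were lower, with 16.7 at Pcdhgc4, 10.5 at Pcdha8 and 7.44 at Pcdhgc5, and Pcdhb1 had no peak there. These 4 members rank below all members with an optimal start peak. In the replicates' own lists, which had a start peak at 71.3% of protein-coding genes in replicate 1 and 70.5% in replicate 2, 57 of 58 members had one in each. Replicate 2 had none at Pcdhb1, where replicate 1 had a signal of 5.60, and replicate 1 had none at Pcdhgc5, where replicate 2 had 5.96. Pcdhgc4 had 10.95 in replicate 1 and 7.49 in replicate 2, and Pcdha8 had 6.30 and 4.30, with its summit 521 bp inside the gene. Pcdhb4 had 18.6 and 27.6, Pcdhb12 had 13.6 and 10.9, and Pcdhga9 had 24.6 and 17.1. The 3 members found in the conservative list alone were thus the strongest of the 7 in both replicates.

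Protocadherin start peaks were mostly of moderate signal. The signal value is the authors' own, on a scale that the sources used here do not state, and it was used to rank peaks within a list. The strongest start peak per member had a median signal of 53.5, against 84.8 at the 9381 other protein-coding genes with a start peak and 76.5 over all optimal peaks. As a percentile of all optimal peaks, the median was 38.1 for the members and 52.9 for other coding genes. A start peak above the median of all optimal peaks was present at 14 of the 58 members, a share close to the 23.1% of protein-coding genes. The clusters differed, with 10 of 19 gamma genes, 3 of 13 alpha genes and 1 of 19 beta genes above that median among those with a start peak. On the same base, 5019 of the 9431 protein-coding genes with a start peak had one above it. The gamma share was thus close to that of coding genes, and the alpha and beta shares were lower. Median signals were 86.2 in the gamma, 59.0 in the alpha and 44.0 in the beta cluster. The order of the clusters was the same in each replicate's own list, with medians of 51.3, 32.4 and 24.03 in replicate 1 and 28.7, 23.1 and 19.1 in replicate 2. In replicate 2 the gap between gamma and alpha was small beside the spread within each cluster (SD 18.3 over 19 gamma genes and 37.6 over 13 alpha genes). The alpha SD includes Pcdhac1, with 157 in replicate 2. In the optimal list the alpha SD was 78.7 over 13 genes and 17.7 over the 11 left without Pcdhac1 and Pcdhac2.

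The C-type genes, which close the alpha and gamma clusters and are expressed more uniformly between neurons than the other variable exons, were the most unequal group. Pcdhac1 had the strongest start peak of all members, with 175 in replicate 1 and 157 in replicate 2 and a signal of 334 in the optimal list, above 88.0% of optimal peaks. Pcdhgc3 had 71.8 and 58.2, with an optimal signal of 130.03. Pcdhac2 had 19.1 and 21.7, with an optimal signal of 41.4, and its summit lay 234 bp after the start in the 5' untranslated region. Pcdhgc4 and Pcdhgc5 had no optimal start peak. The 5 genes of the type therefore covered nearly the whole range of start signals seen in the span, and both replicates gave the 3 listed ones in the same order.

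Among the other alpha genes, whose products differ in their extracellular domains, optimal start signals ranged from 24.2 to 81.9 (SD 17.7 over 11 genes). Pcdha9 was highest, with 42.8 in replicate 1 and 37.9 in replicate 2, followed by Pcdha2 with 42.9 and 35.5. Pcdha12 had 35.3 and 40.1, and Pcdha6 had 41.5 and 23.3. These 4 had optimal signals of 81.9, 78.5, 74.8 and 68.3 in that order, and their order differed between the replicates. Pcdha1 was lowest, with 15.6 and 8.47 and an optimal signal of 24.2, from a peak in its coding exon. Pcdha10 was next, with 16.9 and 20.8 and an optimal signal of 39.2. The 5 remaining alpha genes, Pcdha3, Pcdha4, Pcdha5, Pcdha7 and Pcdha11, had optimal signals of 43.6 to 60.3.

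Beta genes, each encoding a whole protocadherin in 1 exon, had the lowest median start signal of the 3 clusters. Pcdhb10 stood highest with 51.9 in replicate 1 and 41.0 in replicate 2 and an optimal signal of 94.1, and it was the only beta gene above the median of all optimal peaks. Pcdhb17 had 37.0 and 39.2 (optimal signal 74.2), and Pcdhb15 had 38.7 and 27.6 (67.2). Pcdhb16 had 27.6 in both replicates (56.3), and Pcdhb14 had 24.03 and 27.8 (52.9). The highest value of each replicate was at Pcdhb10, and the order of the genes below it differed between the replicates. The lowest were Pcdhb13, with 11.8 and 11.4 (26.1), and Pcdhb5, with 15.2 and 11.7 (27.98). The other 12 beta genes with a start peak had optimal signals of 32.3 to 49.8, all below the median of all optimal peaks.

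Gamma start peaks had the highest median signal of the 3 clusters, and their signals changed along the cluster in blocks. Pcdhga12 was highest, with 77.6 in replicate 1 and 81.3 in replicate 2 (optimal signal 159), followed by the C-type Pcdhgc3. Pcdhga11 had 62.7 and 62.2 (125), Pcdhgb6 had 75.9 and 46.5 (124), and Pcdhgb7 had 71.8 and 47.4 (120.5). All 5 of these genes lie in the 3' part of the variable array. The lowest were Pcdhgb2, with 15.6 and 13.4 (29.9), and Pcdhgb4, with 25.4 and 15.7 (42.7). In gene order, the 5 genes from Pcdhga1 to Pcdhga4 had optimal signals of 66.8 to 99.4, the 7 genes from Pcdhgb2 to Pcdhgb5 had 29.9 to 55.8, and the 7 genes from Pcdhgb6 to Pcdhgc3 had 71.1 to 159. In replicate 1 these blocks held 39.7 to 56.0, 15.6 to 32.3 and 43.5 to 77.6, so the middle block lay below both others. In replicate 2 they held 25.3 to 44.98, 13.4 to 26.6 and 28.7 to 81.3, and the middle block overlapped the first at Pcdhga5 and Pcdhgb1. The blocks were drawn after the values were seen and were not tested. The A-type and B-type gamma genes, which alternate along the array, had median optimal signals of 86.2 over 11 genes and 66.8 over 7 genes, and both types occurred in each block.

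**Figure D2:**
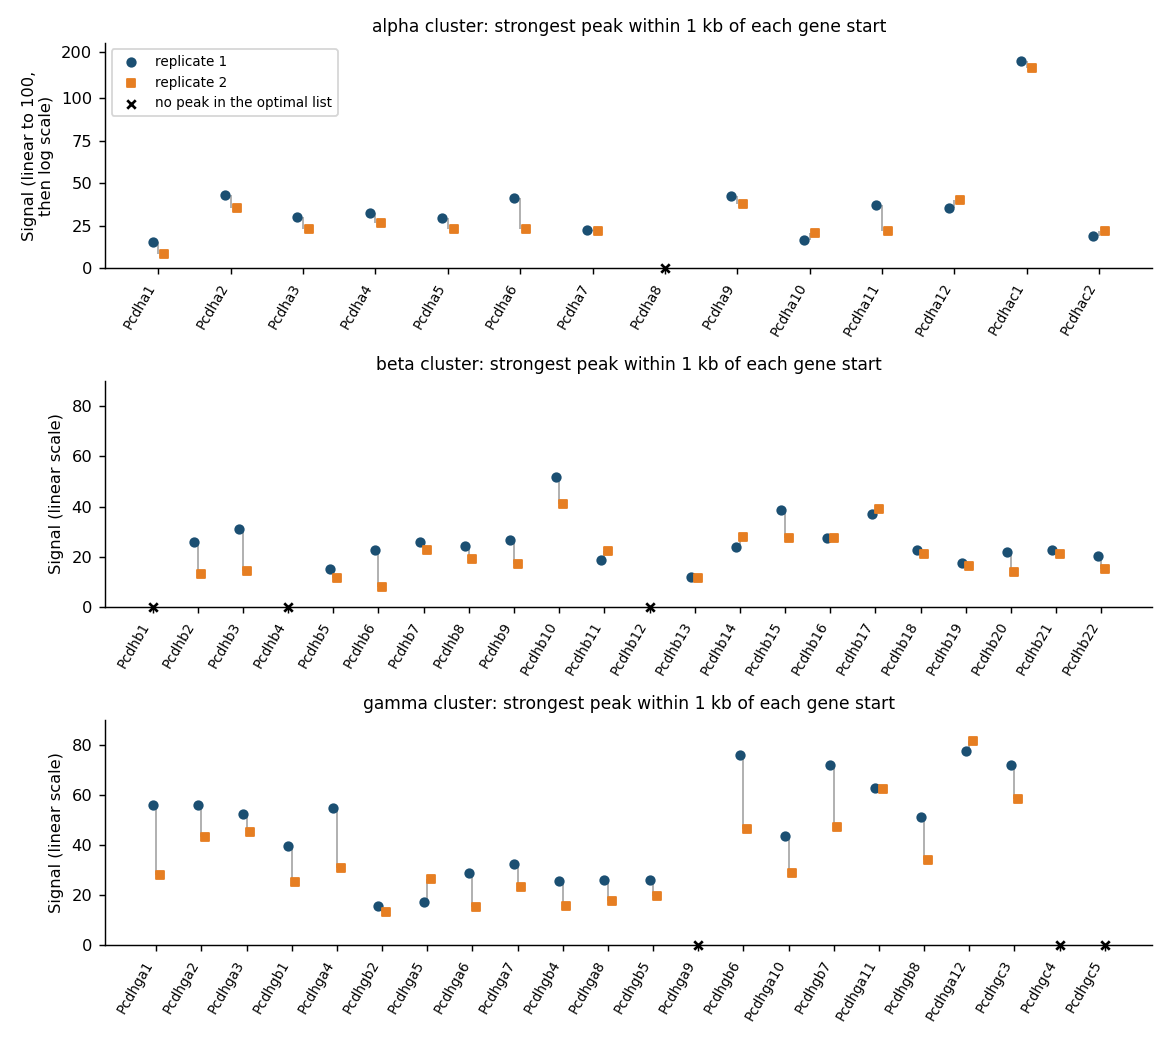
Signal in replicate 1 (circles) and replicate 2 (squares) of the strongest optimal peak within 1 kb of each member's start, in gene order, with crosses at the 7 members without one. Pcdhac1 stands above all others in both replicates, and the gamma genes from Pcdhgb2 to Pcdhgb5 form a low block in replicate 1 (15.6 to 32.3).

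CTCF summits took nearly the same place at each protocadherin start. Of the 51 strongest start peaks, 46 (90.2%) had the summit upstream of the nearest start, against 59.5% at other coding genes. All 46 lay within 350 bp of the start, against 40.9% of the start peaks of other coding genes. The median distance was -53 bp (interquartile range -77.5 to -39.5), against -42 bp (-234 to 175) at other coding genes. The medians thus differ little and the spread of positions is far narrower at the members. The 5 exceptions were the coding exon peaks of Pcdha1 and Pcdha4, the 5' untranslated region peak of Pcdhac2, and the peaks 126 bp after the start of Pcdhb17 and 127 bp after a start of Pcdhga12. Pcdhb22 counts as upstream only from its later annotated start (82 bp), its summit lying 406 bp after the first. Start annotation differs between sources, by 117 bp for Pcdha10 and 146 bp for Pcdha11 between GENCODE and RefSeq, which bears on single distances.

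**Figure D3:**
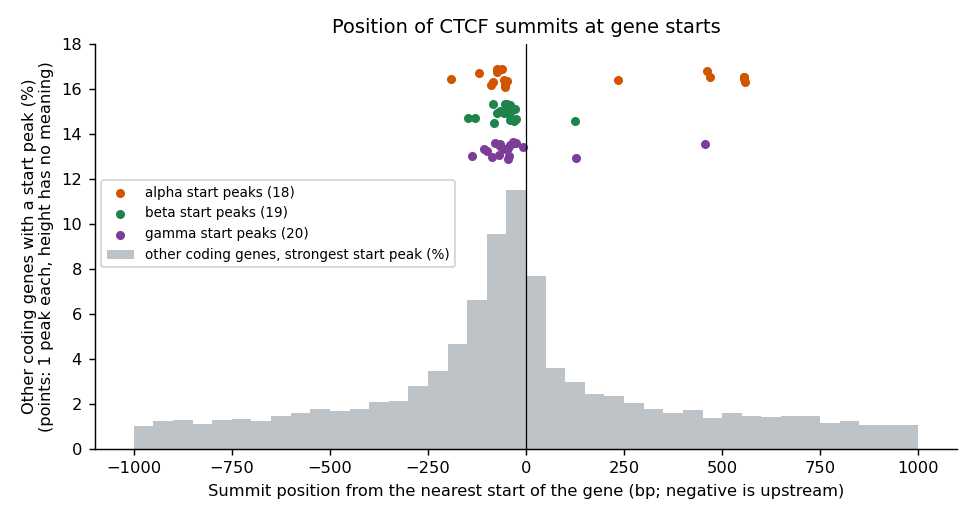
Position of each start peak's summit in bp from the nearest start of the gene (negative is upstream): points are the 57 start peaks of the members by cluster, and bars give the percentage of the strongest start peaks of other coding genes per 50 bp. Most points of each cluster form a narrow band just upstream of the start; the alpha coding exon peaks lie 462 to 559 bp inside the gene, and single points lie apart at Pcdhac2 (234 bp), Pcdhb17 (126 bp), Pcdhga12 (127 bp) and the second peak of Pcdhga11 (456 bp).

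At some of the alpha genes Pcdha1 to Pcdha12, CTCF peaks were listed both upstream of the start and in the variable coding exon. In the optimal list, an exon peak was listed at 6 of the 12 genes (Pcdha1, Pcdha4, Pcdha5, Pcdha6, Pcdha9 and Pcdha12) and an upstream peak at 10. Both were listed at 5 genes, with the summits 631 to 674 bp apart (median 653 bp). In the list called on both replicates together with no IDR threshold, an exon peak was listed at 12 of 12 genes and an upstream peak at 11, Pcdha8 being the exception. Peaks were assigned to these positions by distance from the gene start, and not by a motif site. The exon summits lay 462 to 686 bp after it in that list. The farthest was at Pcdha7, whose exon motif site lay at 584.5 bp. That list is far longer, and the share of other genes with such a pair in it was not computed. The exon peak was the lower of the pair at 9 of these 11 genes, with a median exon to upstream ratio of 0.367 (range 0.238 to 1.29), and Pcdha1 and Pcdha4 were the exceptions. In the replicates' own lists the upstream peak was the higher at 9 of 11 genes in replicate 1 and at 10 of 11 in replicate 2.

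The size of that difference varied from gene to gene. At Pcdha9 the exon peak had 8.98 in replicate 1 and 11.9 in replicate 2, and the upstream peak had 42.8 and 37.9. At Pcdha6 the exon had 14.9 and 5.84 and the upstream position 41.5 and 23.3, and at Pcdha5 the exon had 18.1 and 10.7 and the upstream position 29.9 and 23.1. Exon values lay below upstream values in both replicates of these 3 genes. Pcdha4 was nearly even, with 32.4 and 26.5 in the exon and 32.8 and 24.6 upstream. Pcdha12 had 37.0 and 27.6 in the exon and 35.3 and 40.1 upstream, so its order turned between replicates. Pcdha1 had 15.6 and 8.47 in the exon and 7.23 and 11.3 upstream, and its order turned likewise. Members with 2 or more start peaks were few in all, 6 of 51 against 31.3% of other coding genes with a start peak, and the sixth was Pcdhga11, which had a coding exon peak (22.6) 500 bp from its upstream peak (125).

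**Figure D4:**
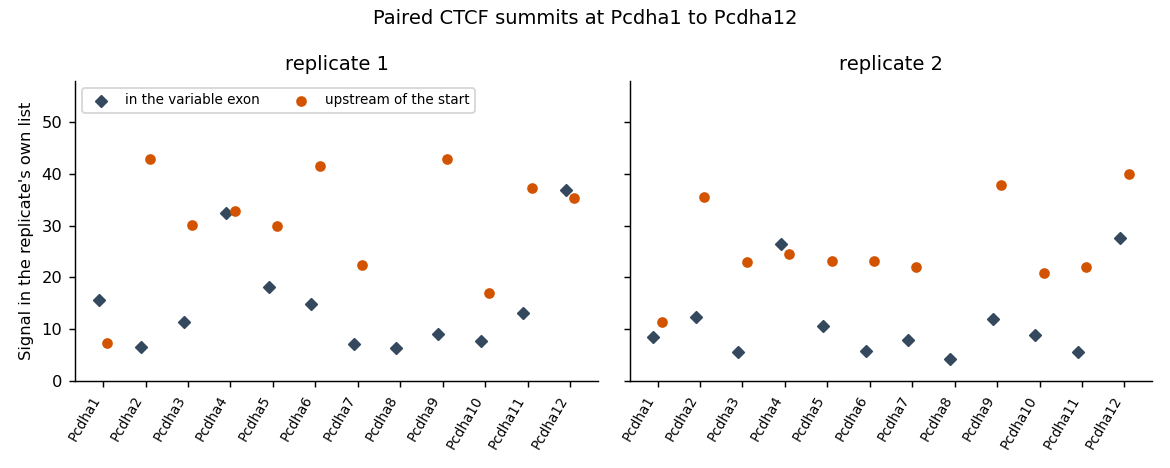
Signal in each replicate's own list for the peak in the variable coding exon (diamonds) and the peak upstream of the start (circles) of Pcdha1 to Pcdha12; no upstream peak was listed for Pcdha8. The upstream peak is the higher at 9 of 11 genes in replicate 1 and at 10 of 11 in replicate 2.

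CTCF motif matches were rare at gamma starts and common at alpha and beta starts. A weight matrix of the CTCF motif was learned from 2000 strong peaks on other chromosomes, and a match was a site within 50 bp of a summit at a per-position probability of 1e-05 or less, which windows 1 kb to each side of all peaks reached in 1.15% of cases. Of the 69 peaks in the span, 26 (37.7%, Wilson 95% interval 27.2 to 49.5) had a match, against 59.0% of all optimal peaks. Of the strongest start peaks, 17 of 51 had one, against 36.3% of those at other coding genes. By cluster these were 8 of 13 alpha, 9 of 19 beta and 0 of 19 gamma start peaks, for which a share of up to 16.8% lies within the Wilson 95% interval. The alpha count includes the coding exon peaks of Pcdha1 and Pcdha4. Over all alpha start peaks outside coding exons, 6 of 12 had a match. At the looser probability of 1e-04 the counts were 10 of 13 alpha, 19 of 19 beta and 2 of 19 gamma start peaks (Pcdhga3 and Pcdhga7), against 63.1% at other coding genes. The alpha and beta shares overlapped within their Wilson 95% intervals at 1e-05 (35.5 to 82.3% for alpha and 27.3 to 68.3% for beta), and their order turned at 1e-04. These intervals treat the peaks as independent, which neighbouring members are not, so they cannot decide whether the clusters differ. The gamma cluster thus had the highest median start signal of the 3 clusters and the fewest matches.

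Gamma start peaks had fewer matches than start peaks of like signal elsewhere. Start peaks of other coding genes within the signal range of the gamma start peaks had a match in 24.5% of 5313 cases at 1e-05 and in 55.5% at 1e-04. The best motif score near the summit had a median of 2.63 bits at gamma start peaks, against 9.71 bits at other coding genes and -3.12 bits in the windows beside peaks. It was 12.4 bits at beta start peaks, 11.8 bits at alpha start peaks outside coding exons and 16.7 bits at the 7 start peaks in coding exons, the threshold of 1e-05 being 12.47 bits. Gamma start peaks therefore lay between the background windows and other coding starts. Pcdhac1, Pcdhac2 and Pcdhgc3 had no match at 1e-05 either, and of these 3 only Pcdhac1 had one at 1e-04. In the sequence itself, whether or not a peak was listed there, the matrix found a site at 1e-05 in the variable exon of 9 of the 12 genes Pcdha1 to Pcdha12 and upstream of the start of 6; no share of other genes was computed for this count.

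**Figure D5:**
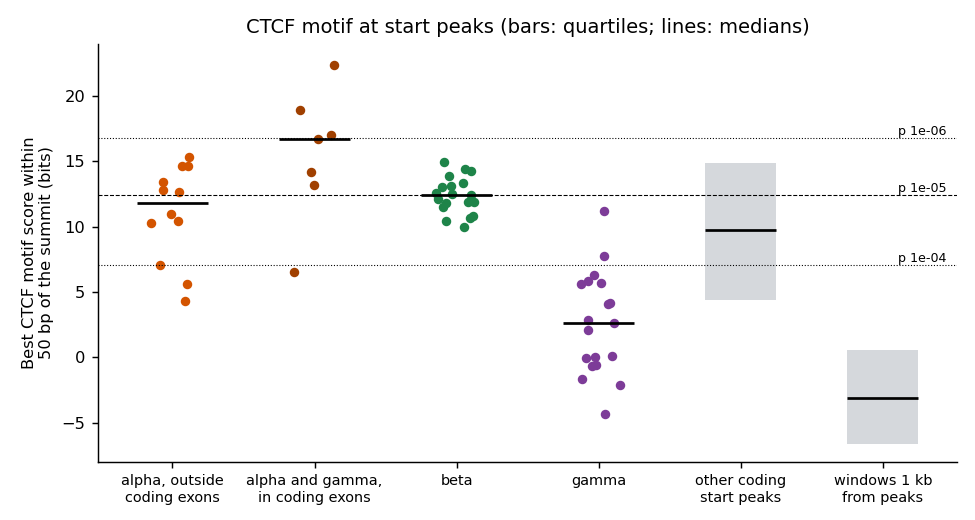
Best CTCF motif score in bits within 50 bp of the summit for each start peak of the members (points, with medians as lines), beside the quartiles of start peaks of other coding genes and of windows 1 kb from peaks (bars), with dashed and dotted lines at the 3 score thresholds. Beta points cluster about the threshold of 1e-05, and all gamma points lie below it (median 2.63 bits).

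Motif matches at protocadherin starts all pointed the same way as the genes. Of the 57 start peaks, 21 had a match, and all 21 lay on the strand of the genes. Over the strongest peak per member, 17 of 17 matches lay on that strand, against 54.8% at other coding genes. At 1e-04 these were 31 of 31, against 53.4%. The members lie on 1 strand and share sequence, so these matches are not independent. Away from the starts, 5 of the other 12 peaks of the span had a match at 1e-05, and all 5 lay on the minus strand. At 1e-04 this no longer held for all of them: 8 of the 12 had a match, 6 on the minus strand and 2 on the plus strand, at 3222401L13Rik and in the untranslated region at 37840916. The sequence of the span held 58 motif sites at 1e-05 in all, of which 27 had an optimal peak within 50 bp. All 27 sites within 1 kb of a member start lay on the plus strand, and 21 of them had a peak. Of the 31 sites farther from a start, 13 lay on the plus strand and 6 had a peak, all 6 on the minus strand. The sites at 37852261 and 37852354 shared the peak at 37852315. The share of motif sites with a peak outside the span was not computed.

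Motif words resembled each other within a cluster more than between positions. Compared base by base over 20 positions, motif words of alpha starts outside coding exons shared a median of 15 bases (range 13 to 18, 15 pairs), as did those of beta starts (12 to 18, 36 pairs). Words in alpha coding exons shared 17 (15 to 19, 15 pairs). Words of alpha starts against alpha coding exons shared 11 (7 to 14), the same as pairs of start motifs of other coding genes (4 to 20). Alpha against beta words, with exons left out, shared 13 (10 to 16). The pairs share sites, so these counts are a description.

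The 12 peaks away from the member starts included the strongest of the span. In order along the chromosome, the first lay in an intron 4655 bp after the start of Pcdhac2, with 17.6 in replicate 1 and 17.1 in replicate 2 (optimal signal 36.5) and no match. The second, at 37177081 in an exon of a noncoding transcript within the alpha cluster, had 17.1 and 7.48 (24.9) and a minus strand match, and it was not in the conservative list. Between the alpha and beta clusters, summits at 37217488 and 37218432, less than 1 kb apart, had 121 and 102 (225) and 159 and 152 (312). Both had a minus strand match. They were among the 4 strongest peaks of the span and stood alone in the interval beyond the 3' end of the alpha cluster.

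The next 3 peaks lay at starts of other genes in the interval before the gamma cluster, and none had a match. At Taf7, which encodes a subunit of the general transcription factor TFIID, they had 11.6 and 7.71 (22.1) and 34.6 and 18.2 (52.0). At the noncoding gene 3222401L13Rik the peak had 39.2 and 29.0 (68.7). In the gamma cluster, a peak 2547 bp into Pcdhgc3, in coding sequence, had 64.04 and 52.3 (117) and no match. A pair of peaks lay in the untranslated region of the shared last exon, a weak one with 22.6 and 15.7 (37.0) and no match, and 1 at 37841467 with 80.6 and 59.3 (141) and a minus strand match with a score of 24.8 bits. Beyond the cluster, an intergenic peak had 20.9 and 15.3 (35.3) with no match. The last, at 37852315 in an intron of Diaph1, which encodes an actin-nucleating formin, was the strongest peak of the span, with 257 and 247 (504), above 99.4% of optimal peaks, and had a minus strand match. Thus 3 of the 4 strongest peaks of the span lay beyond a cluster's 3' end, and the remaining one was the start peak of Pcdhac1.

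The ratio of the replicates varied about as much at the span's peaks as over all peaks. All 69 were found in both replicates' own lists, as were 67101 of the 68590 optimal peaks. About the median ratio of these 67101 peaks, the log2 ratio of replicate 1 to replicate 2 had a median size of 0.26 in the span. Over the 67101 peaks the median size was 0.22. The ratio was within 2-fold at 67 of 69 peaks of the span (97.1%), against 94.8% of the 67101 peaks. The 2 exceptions were Pcdhb6, with 22.8 in replicate 1 and 7.77 in replicate 2 (1.25), and the exon peak of Pcdha6 (1.05). Pcdhga5 leaned most to replicate 2 (-0.94, with 17.1 and 26.6). In the conservative list 61 of the 69 peaks (88.4%) had a summit within 100 bp, against 86.9% of all optimal peaks. Thresholding by IDR removes peaks whose ranks disagree, which limits what this comparison can show.

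Member starts had a lower median GC content than those of other coding genes, and their CpG ratio varied by cluster. In the 1 kb around a start, the median GC content was 44.9% at members and 54.9% at other coding genes. The median ratio of observed to expected CpG, which is high in CpG islands, was 0.68 at alpha, 0.38 at beta and 0.61 at gamma starts. Over all members it was 0.56, the same as at other coding genes (0.56, interquartile range 0.22 to 0.77). Members resemble each other in sequence, and short reads from near-identical copies cannot be assigned to 1 of them. The median share of 32-base words in the 1 kb around a start that occur once in the genome was 78.6% for alpha, 100% for beta and 98.4% for gamma genes. It was 97.6% at the 7 members without an optimal start peak and 98.3% at those with one. At the exon sites of Pcdha7 and Pcdha8, which had the same motif score, it was 32.3% within 100 bp of each site. The part of shared sequence in the alpha values was not tested.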

How the data were processed

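CTCF ChIP-seq peaks of postnatal midbrain were taken from 5 narrowPeak lists deposited on mm10, per the deposited text notes: 1 list per replicate against a control alignment, 1 called on both replicates together, and optimal and conservative lists thresholded by IDR. The signal values per peak are those the authors deposited, on a scale that no note states, and they were not made comparable between lists by any recorded step. Agreement of the replicates was measured as log2 ratios about the median ratio of the optimal peaks found in both replicates' lists. That median log2 ratio was 0.305, with replicate 1 the higher. Replicate values printed or drawn side by side are not adjusted for it, so equal values do not mean equal standing. Optimal peaks carry the signal of the joint call on both replicates. The aligner, peak caller, sequencing depth and threshold of the IDR were not given in the sources used here.

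Coordinates are 1-based on mm10, with starts from GENCODE vM21 and sequence from GRCm38.p6. Peaks on chromosomes 1 to 19 and X were used. A start peak had its summit within 1 kb of any annotated transcript start of the gene, and the strongest was taken. Percentiles give the share of optimal peaks at or below a signal. Summits of other lists were matched within 100 bp. The CTCF weight matrix, 20 bp long, was learned by expectation maximisation from 2000 strong peaks not on chromosome 18, tested on simulated data with planted motifs, and thresholded by exact per-position probabilities. The strand of a match is that of the G-rich core. Uniqueness was counted as 32-base words on both strands of the genome.

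Values were printed for the C-type genes, the members without a start peak, the 5 highest and 2 lowest start signals of each cluster, every peak away from a start, and other genes of the span with a start peak. The members and lists were chosen with earlier results of these data known. The study has 1 group, so no groups were compared and no p-values over genes are given. Wilson 95% intervals cover counting error only and treat peaks as independent, which those of neighbouring members are not. Alternatives were other lists, the stronger 50% of peaks, single replicates, other distances and other motif thresholds. Python 3.11.15, numpy 2.4.6, pandas 2.3.3, scipy 1.17.1 and matplotlib 3.10.9 were used.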

Additional observations from a re-analysis of the deposited data

How the results depend on the processing

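Of 47 alternative values over 8 results, 38 stayed close to the values reported and 9 moved. With the stronger 50% of optimal peaks, a start peak remained listed at 3 alpha, 1 beta and 10 gamma genes. These were 14 of 58 members in all, a share close to the 23.1% of protein-coding genes. The span then held 19.96 peaks per Mb, against 13.6 per Mb of the autosomes. The span's excess of listed peaks therefore rests mainly on peaks below the median signal. The median signal percentile of the span's peaks was 35.6 in the conservative list, and 36.5 to 37.6 when a single replicate's signals were used. The share of the span's peaks with a motif match was 63.8% at a probability of 1e-04, against 79.99% of all optimal peaks, and 8.70% at 1e-06, against 31.9%. All matches at member starts lay on the genes' strand at 1e-04 (36 of 36), within 100 bp (22 of 22) and in the conservative list (19 of 19). At 1e-06 only 3 matches were left, all on that strand and all in the coding exons of Pcdha1, Pcdha4 and Pcdha6. The threshold of 1e-06 thus shows nothing on start peaks outside coding exons. With 1 replicate left out, the other replicate's own list was cut to its 68590 strongest peaks. A start peak was then listed at 52 members either way, against 43.99% of protein-coding genes without replicate 1 and 44.1% without replicate 2. The span held 69.4 to 70.4 peaks per Mb in these cut lists, against 27.2 per Mb of the autosomes. No paired analysis was possible because the study has 1 group. The unknown depth and the IDR thresholds limit what a missing peak can show.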

Other observations

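Some motif sites at member starts had no optimal peak. Of the 27 sites at 1e-05 within 1 kb of a start, the 6 without a peak within 50 bp lay in the coding exons of Pcdha7, Pcdha8 and Pcdha10, upstream of Pcdhb12 and Pcdhb18, and 48 bp after a start of Pcdhga12. The exon sites of Pcdha7 and Pcdha8 scored 16.9 bits each and the other 4 scored 13.9 to 14.7 bits. At Pcdhga12 the optimal summit lay outside the 50 bp window, so that the gene with the highest gamma start signal had the only motif site found within 1 kb of a gamma start. The 21 sites with a peak scored up to 22.4 bits, the highest at the exon of Pcdha1, whose optimal peak was the weakest alpha start peak of those taken per gene (24.2). Away from the starts, 1 of the highest-scoring sites of the span (18.6 bits, plus strand, at 37552943, between the beta and gamma clusters) lay where 59.2% of 32-base words were unique, and had no peak within 50 bp in the optimal list or in the list called on both replicates together.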
